A study of Mus musculus with 6 samples.

Results

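The miRNAs described here are 44 mature miRNAs of the imprinted Dlk1-Dio3 domain on mouse chromosome 12. They were taken by name from a table of 1915 mature miRNA names, and all 44 were found, each in a single row, on 39 hairpin precursors. Imprinted genes are expressed from the chromosome copy of 1 parent. In this domain the maternal copy gives rise to the long noncoding RNAs Meg3, Rian and Mirg and to an RNA antisense to Rtl1, and the miRNAs are processed from these transcripts, whereas the paternal copy expresses the protein-coding genes Dlk1, Rtl1 and Dio3. The cluster is known for high expression in embryo, placenta and brain and is low in most adult tissues. In mice, inhibition of several of its miRNAs, including miR-329, miR-487b, miR-494 and miR-495, is known to promote the growth of new vessels after ischemia, which is the reason for interest in them in cells of endothelial type.

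Endothelial progenitor cells (EPCs) were cultured from bone marrow of male C57BL/6J mice, obtained at 11 weeks of age, that had breathed either concentrated ambient fine particulate matter (CAP) or HEPA-filtered air for 6 h per day on 30 consecutive days. RNA was taken from the cultured cells (12 days of culture in the labels, 10 days in the study's methods), and small RNA libraries of 3 mice per group were sequenced. No genetic alteration is stated for either group. The 3 mice of each group shared 1 cage, so that cage and exposure cannot be told apart. The comparison addressed which miRNAs differed between EPCs of the CAP and air groups.

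With 1 row kept per name, libraries held 13831209 to 18107578 counts. Levels are given as CPM, counts scaled to the library size after TMM normalization, a correction for differences in composition between libraries. Where 3 levels are given for a group, they are those of replicates 1, 2 and 3 in this order, and fold changes are given on the log2 scale, CAP over air, with ± the standard error (SE). At these depths a miRNA with no count could have stood at 0.166 CPM in the deepest library and 0.222 CPM in the shallowest (3 counts, counting error only). The endothelial miR-126a-3p stood at 2116, 1516 and 4005 CPM in air and 2760, 749 and 1520 CPM in CAP. The hematopoietic miR-223-3p stood at 24739 to 32064 CPM over all libraries. Which cells carried either miRNA was not tested. In such bulk RNA, fewer cells of a type and less RNA per cell cannot be told apart. CAP replicate 1 stood apart by liver-restricted miR-122-5p, at 24731 CPM against 75.03 to 277 CPM elsewhere, and values are therefore also given without it where they turn on it.

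Mature sequences are shown for the miRNAs on which the following results turn, from RefSeq on GRCm38 and written 5′ to 3′, with the seed (bases 2 to 8, which pair with target mRNAs) in capitals. The prefix mmu, for mouse, is left out of names elsewhere. The first 6 form 3 pairs whose seeds differ by a single base and in which both members were tested, because their values are compared further on. They are followed by the abundant miR-127-3p and miR-382-5p, by miR-409-3p, and by both arms of the 3 precursors whose arm ratio did not overlap between the groups.
mmu-miR-376b-3p: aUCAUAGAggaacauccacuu
mmu-miR-376a-3p: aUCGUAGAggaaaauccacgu
mmu-miR-300-3p: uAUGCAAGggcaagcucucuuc
mmu-miR-381-3p: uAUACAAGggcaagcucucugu
mmu-miR-379-5p: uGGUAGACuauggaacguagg
mmu-miR-411-5p: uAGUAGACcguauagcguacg
mmu-miR-127-3p: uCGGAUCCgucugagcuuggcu
mmu-miR-382-5p: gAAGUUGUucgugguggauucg
mmu-miR-409-3p: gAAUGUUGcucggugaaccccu
mmu-miR-434-5p: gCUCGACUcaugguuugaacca
mmu-miR-434-3p: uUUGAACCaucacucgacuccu
mmu-miR-337-5p: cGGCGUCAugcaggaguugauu
mmu-miR-337-3p: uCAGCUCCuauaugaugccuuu
mmu-miR-136-5p: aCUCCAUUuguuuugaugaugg
mmu-miR-136-3p: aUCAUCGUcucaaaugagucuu

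Of the 44 members, 41 had a mature sequence in the RefSeq table, and no 2 of them shared a seed. In 6 pairs the seeds differed by a single base. Positions are counted from 1 at the 5′ end, and each change gives the base of the first miRNA, the position and the base of the second. Between miR-376b-3p and miR-376a-3p the change was A4G, between miR-300-3p and miR-381-3p G4A, and between miR-379-5p and miR-411-5p G2A. Over the whole molecule, each of the first 2 of these pairs differed at 3 positions. The seed of miR-379-5p was shared by 1 other mature name, miR-1193-5p, whose precursor lies in the same domain and which had 3 counts in all libraries together. The seed of miR-329-3p was shared by miR-362-3p. Of the printed miRNAs, all but miR-379-5p and miR-411-5p had a seed of their own among the 1679 mature names with a sequence.

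The member precursors spanned positions 109571990 to 109743795 of chromosome 12 (GRCm38), or 171.8 kb, and fell into 3 groups separated by gaps of more than 10 kb between precursors. The first, from miR-673 to miR-136, held 11 members, and its precursors from miR-431 to miR-136 lie opposite to an exon of Rtl1, the gene that miR-127, miR-136, miR-431, miR-433 and miR-434 match perfectly. The second held miR-341-3p and miR-370-3p, both in introns of Rian. The third, from miR-379 to miR-410, held 31 members, and the precursors from miR-382 onward lie in exons or introns of Mirg.

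As a whole the cluster was scarce in these cells, and its summed level did not separate the groups. The 44 members together held 4551, 4175 and 4108 counts in CAP replicates 1, 2 and 3 and 5129, 3985 and 3304 counts in air replicates 1, 2 and 3, which is 2.13 to 3.10 counts in 10000. Summed, the members reached 296, 246 and 218 CPM in air, and 291, 231 and 304 CPM in CAP. The highest air library thus lay above CAP replicates 1 and 2, and the lowest CAP library lay below air replicates 1 and 2. The group means were 254 ± 39.5 CPM in air and 275 ± 38.8 CPM in CAP (SD, n = 3), a ratio of 1.09, and this difference was smaller than the spread within either group. It is given as a description, with no test.

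**Figure D1:**
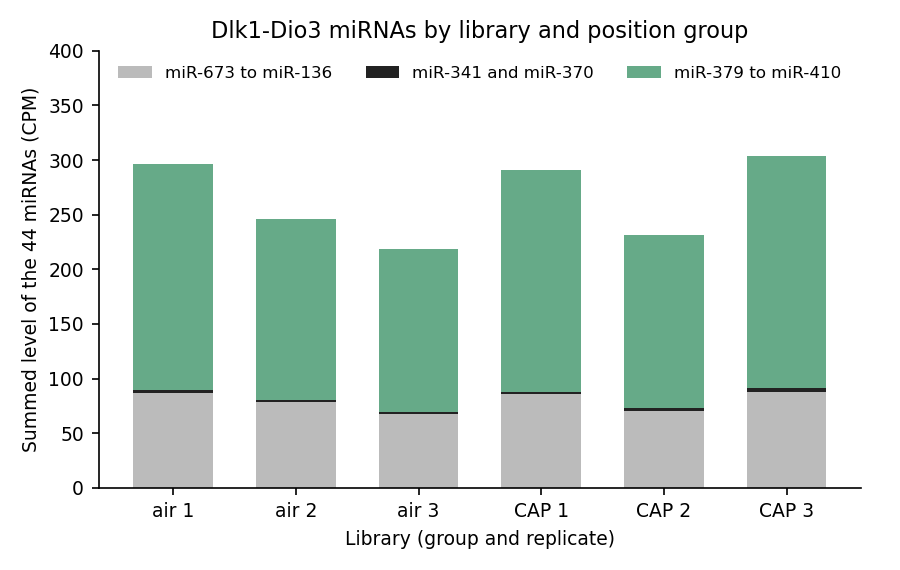
Summed CPM of the 44 miRNAs in each library (y axis), stacked by the 3 position groups of their precursors; each bar is 1 library. Air libraries reached 218 to 296 CPM and CAP libraries 231 to 304 CPM, and the group from miR-379 to miR-410 made up the largest part of every bar.

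The third group gave 69.1% of all member counts, the first 30.02% and the second 0.895%. In the first group the sum was 67.6 to 86.4 CPM in air and 70.2 to 88.1 CPM in CAP. In the third it was 149 to 207 CPM in air and 158 to 213 CPM in CAP. The second, with only 2 scarce members, stood at 1.45 to 2.95 CPM in air and 1.86 to 3.05 CPM in CAP. Each of the 3 sums overlapped between the groups.

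Levels within the cluster were uneven although the miRNAs are processed from neighboring transcripts. The 10 most abundant members held 63.8 to 69.6% of the member counts in every library. Levels of different miRNAs carry a ligation and amplification bias that differs between sequences, and their order is therefore a description of these libraries. miR-379-5p, the first miRNA of the third group, was the highest with 13.7% of member counts and ranked 244 among all names by mean CPM. It was followed by miR-411-5p with 10.5% and miR-127-3p with 9.28%. The other members at the top were miR-382-5p, miR-434-5p, miR-541-5p, miR-300-3p, miR-434-3p, miR-381-3p and miR-431-5p, with 3.37 to 7.57% each.

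None of the abundant members passed the test between groups, and their levels overlapped. miR-379-5p was at 34.1, 33.8 and 31.1 CPM in air, and at 39.6, 33.0 and 46.8 CPM in CAP. Of the CAP libraries, replicate 2 lay within the air range and the other CAP libraries above it. Its fold change was 0.27 ± 0.15 (edgeR adjusted p = 0.336). miR-411-5p, from a nearby precursor and with a seed that differs by G2A, was at 32.1, 28.4 and 22.3 CPM in air and 31.8, 21.0 and 31.8 CPM in CAP. Here the lowest library belonged to CAP and the highest to air, with a fold change of 0.03 ± 0.21.

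miR-127-3p, which directs cleavage of the Rtl1 transcript that it matches, was at 28.4, 22.7 and 22.5 CPM in air and 24.95, 19.4 and 29.7 CPM in CAP. Its group means were 24.5 ± 3.36 and 24.7 ± 5.16 CPM (SD, n = 3), with a fold change of 0.01 ± 0.19, and the lowest and the highest library were both of the CAP group. miR-382-5p was at 22.8, 15.5 and 15.2 CPM in air and 21.0, 19.4 and 26.4 CPM in CAP. Air replicate 1 alone among the air libraries reached the CAP range, and the fold change was 0.32 ± 0.21. miR-541-5p, at 14.0, 13.1 and 10.9 CPM in air and 15.99, 11.9 and 14.8 CPM in CAP, also overlapped. So did miR-431-5p, which is encoded opposite to Rtl1, at 9.59, 6.98 and 8.26 CPM in air and 9.40, 8.53 and 10.9 CPM in CAP.

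The precursors of miR-300-3p and miR-381-3p are neighbors, and their fold changes had opposite signs. miR-300-3p was at 11.8, 8.39 and 8.73 CPM in air and at 12.0, 9.80 and 14.0 CPM in CAP. miR-381-3p was at 10.9, 10.6 and 8.20 CPM in air and at 9.02, 6.37 and 9.03 CPM in CAP. Both overlapped between the groups. Their fold changes were 0.30 ± 0.21 and −0.28 ± 0.21, and neither passed (edgeR adjusted p = 0.425 and 0.459).

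Across the 31 members that were tested, no single miRNA passed a Benjamini–Hochberg adjusted p of 0.05 by edgeR, as was the case for all 677 miRNAs tested (0% called). The smallest adjusted p of a member was 0.146. Run on the same counts, DESeq2 passed 0 of 32 members for which it gave an adjusted p, against 4.25% of 706 miRNAs. At an unadjusted p under 0.05, 1 member was higher in CAP, miR-376b-3p, which is 3.23% of those tested against 11.5% of all miRNAs, and 0 were lower against 9.45% of all miRNAs. Counts this small do not set the members apart from all miRNAs. The counts moved with single libraries: 4 members were higher without air replicate 1 and 5 without CAP replicate 2. Lower were 1 without air replicate 2, 1 without air replicate 3 and 2 without CAP replicate 1. Shares over all miRNAs are not given for these fits.

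Air and CAP levels were fully separate for 2 members with higher values in CAP, miR-376b-3p and miR-409-3p, against 14.6% of all miRNAs tested. The same held for 1 with lower values, miR-337-3p, against 14.3%. The other 28 tested members overlapped. With 1 library left out, 7 members (without air replicate 1), 8 (without CAP replicate 2) and 1 (without CAP replicate 1) were separate and higher. Separate and lower were 2 (without air replicate 2), 5 (without air replicate 3) and 4 (without CAP replicate 1). Separation is easier with 2 libraries in a group, so the above shares of all miRNAs do not apply to these counts. They are given only to show that the counts moved with single libraries. Past a log2 fold change of 0.6 in either direction, the second threshold of the study, there was 1 member, miR-376b-3p, or 3.23% against 16.4% of all miRNAs.

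The members leaned toward higher levels in CAP by a small amount that depended on single libraries. Of the 31, 20 had a log2 fold change above 0 (64.5%, against 50.5% of all miRNAs) and 11 had one below 0, with a median of 0.16 against 0.00 over all miRNAs. The values ran from −0.48 for miR-496a-3p to 0.88 for miR-376b-3p, and the median standard error of a member was 0.23. That error does not measure how the members moved together between libraries. The median deviation from each member's own mean ran from −0.29 to 0.28 within the air libraries alone. Members of 1 transcript are not independent of each other, and the count of 20 is given with no test. Without CAP replicate 1 the median was −0.05, and without CAP replicate 2 it was 0.21. Without air replicate 1 it was 0.29, whereas without air replicates 2 and 3 and without CAP replicate 3 it was 0.01, 0.02 and 0.03. Upper-quartile scaling, which moved the median of all miRNAs from 0.00 to 0.15, moved that of the members to 0.30.

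**Figure D2:**
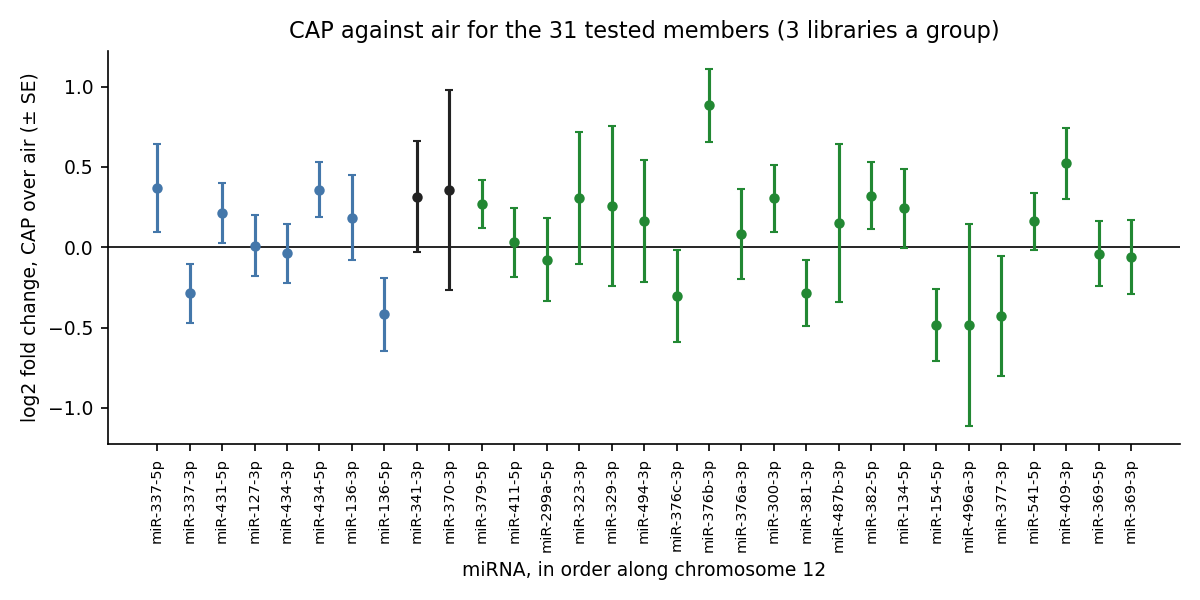
Log2 fold change, CAP over air, of the 31 tested members with its standard error (y axis), in the order of their precursors along chromosome 12 (x axis; blue, miR-337 to miR-136; black, miR-341 and miR-370; green, miR-379 to miR-369). Positive and negative values both occur along the cluster, and miR-376b-3p lies highest at 0.88.

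Both directions occurred in position groups 1 and 3. In the first group 5 of 8 tested members were above 0 with a median of 0.10, in the second both of 2, and in the third 13 of 21 with a median of 0.15. Within the third group miR-376c-3p, miR-376b-3p and miR-376a-3p, from 3 precursors close to each other, had log2 fold changes of −0.30, 0.88 and 0.08.

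miR-376b-3p gave the largest difference of the cluster. miR-376 miRNAs are known to be edited from adenosine to inosine in mouse and human brain. Its counts were 39, 42 and 31 in air and 83, 66 and 51 in CAP. The levels were 2.25, 2.59 and 2.05 CPM in air and 5.31, 3.66 and 3.77 CPM in CAP. Every CAP library lay above every air library, and CAP replicate 1 was the highest. The ratio of the means was 1.85, with 2.30 ± 0.274 CPM in air and 4.25 ± 0.923 CPM in CAP (SD, n = 3). The fold change was 0.88 ± 0.23, and the difference did not pass over all miRNAs (edgeR unadjusted p = 0.00599, adjusted p = 0.146; DESeq2 adjusted p = 0.114). It was the only member below an unadjusted p of 0.05 in all of the fits run, and its fold change was between 0.63 (without CAP replicate 1) and 0.97 (without CAP replicate 2) when each library was left out.

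The closest relatives of miR-376b-3p overlapped between the groups. miR-376a-3p, named here after its values were seen, is encoded next to it and its seed differs by A4G. It was at 6.93, 4.51 and 3.44 CPM in air and 5.44, 4.54 and 5.85 CPM in CAP. All CAP libraries lay within the air range, and the fold change was 0.08 ± 0.28. miR-376c-3p was at 7.05, 4.88 and 5.95 CPM in air and 6.85, 3.93 and 3.70 CPM in CAP, with CAP replicates 2 and 3 below all air libraries. The opposite arm of the same hairpin, miR-376b-5p, was at 3.06, 2.41 and 2.78 CPM in air and 4.03, 2.05 and 4.74 CPM in CAP. Its fold change was 0.38 ± 0.32, and CAP replicate 2 was the lowest of the 6 libraries. Whether these members differ from miR-376b-3p in their response was not tested.

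miR-409-3p was the other member without overlap that was higher in CAP. It stood at 7.34, 4.38 and 5.75 CPM in air and 8.76, 7.48 and 8.88 CPM in CAP. Air replicate 1 came close to CAP replicate 2, and the remaining air libraries were well below. The means were 5.82 ± 1.48 and 8.37 ± 0.779 CPM (SD, n = 3), a ratio of 1.44, with a fold change of 0.52 ± 0.22 (edgeR adjusted p = 0.240, unadjusted p = 0.0508). miR-434-5p followed, with 12.5, 14.9 and 11.1 CPM in air and 16.6, 14.5 and 18.5 CPM in CAP, where CAP replicate 2 lay below air replicate 2 (fold change 0.36 ± 0.17).

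**Figure D3:**
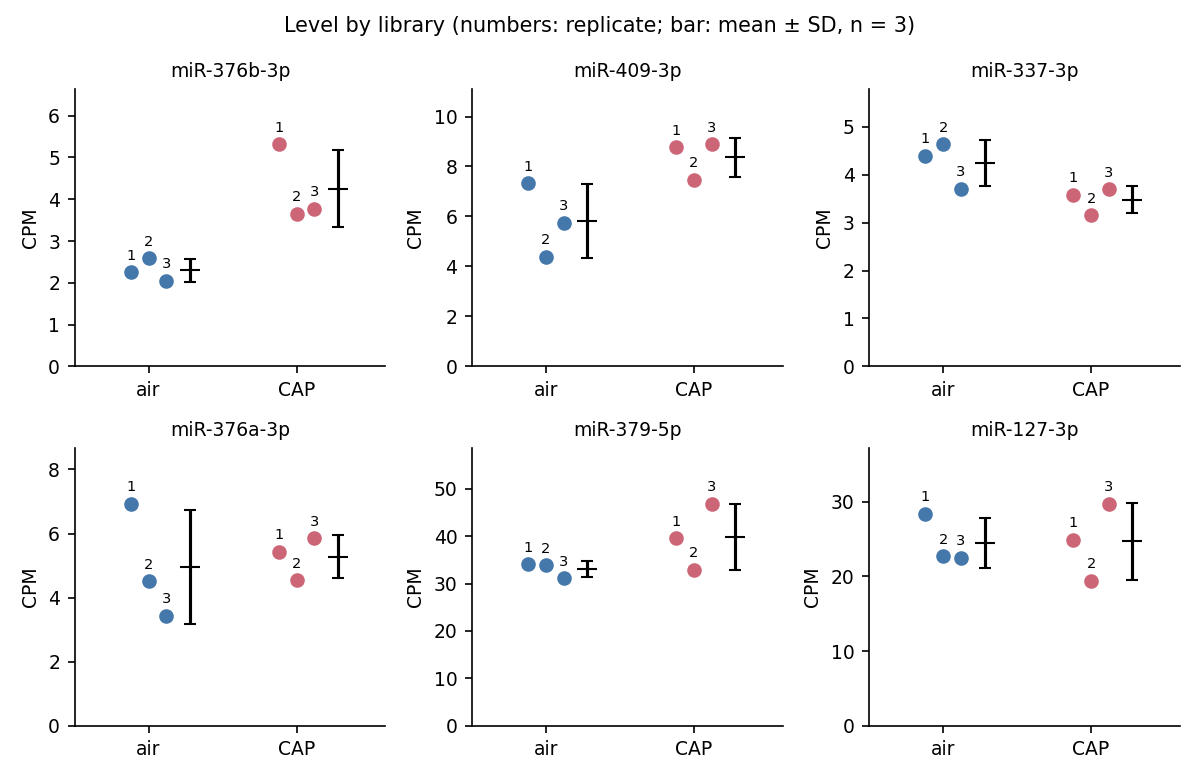
CPM of 6 members in each library (y axis, from 0), with replicate numbers beside the points and the mean ± SD of each group (n = 3). miR-376b-3p and miR-409-3p are higher in all CAP libraries, miR-337-3p is lower by a narrow margin, and miR-376a-3p, miR-379-5p and miR-127-3p overlap between air and CAP.

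The tested members with the smallest p among those lower in CAP differed less. miR-154-5p was at 5.43, 3.95 and 5.35 CPM in air and 4.16, 3.49 and 2.89 CPM in CAP. CAP replicate 1 lay above air replicate 2, and the fold change was −0.48 ± 0.22 (edgeR adjusted p = 0.271). miR-136-5p, encoded opposite to Rtl1, was at 9.07, 10.1 and 6.28 CPM in air and 7.36, 5.54 and 6.14 CPM in CAP. Only CAP replicate 1 overlapped with the air range, and the fold change was −0.42 ± 0.23. For miR-337-3p, levels of 4.39, 4.63 and 3.70 CPM in air and 3.58, 3.16 and 3.70 CPM in CAP were separated by less than can be seen at this rounding, air replicate 3 with 56 counts and CAP replicate 3 with 50 counts being almost level. The separation was lost under upper-quartile scaling, with library totals alone, and with all rows or the sum of rows per name. miR-377-3p was scarce at 2.54, 1.91 and 1.12 CPM in air and 1.86, 1.05 and 1.26 CPM in CAP, and overlapped.

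The members were unevenly spread over the libraries in which they were highest or lowest. Air replicate 1 was the highest of the 6 libraries for 13 of the 31 tested members (41.9%, against 17.3% of all miRNAs tested), CAP replicate 3 for 10 (32.3% against 13.4%) and CAP replicate 1 for 5 (16.1% against 12.0%). Air replicate 3 was the lowest for 15 members (48.4%, against 19.8%). CAP replicate 2 was the lowest for 7, and this share equalled that of all miRNAs within rounding (22.6% against 22.7%), but it was the highest for only 1 member (3.23% against 26.6%). Air replicate 3 was the highest for 0 members and CAP replicate 1 the lowest for 0. Relative to each member's own mean, the median deviation on the log2 scale was 0.28 in air replicate 1, −0.09 in air replicate 2 and −0.29 in air replicate 3, and 0.17, −0.14 and 0.21 in CAP replicates 1, 2 and 3. Members of 1 transcript are not independent of each other, and these counts are given with no test.

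**Figure D4:**
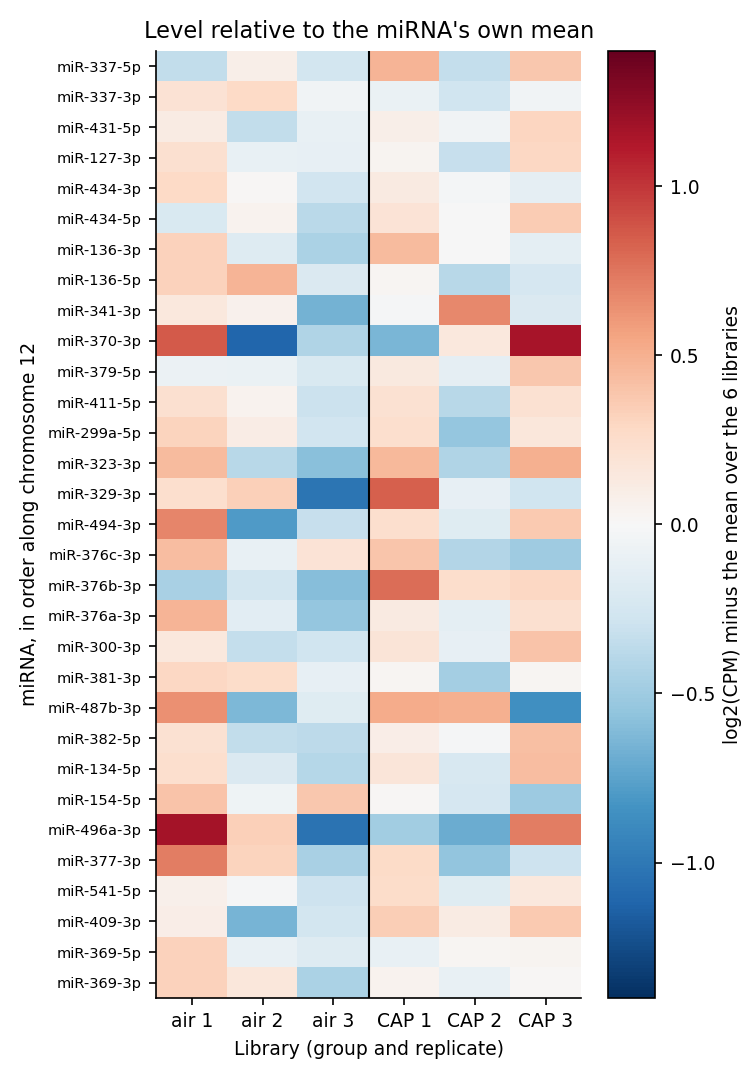
Log2 CPM of each tested member minus its own mean over the 6 libraries (color), with members in chromosomal order (rows) and libraries in columns, air to the left of the line. Columns of air replicate 1 and CAP replicates 1 and 3 are mostly red, and those of air replicate 3 and CAP replicate 2 mostly blue, with median deviations from −0.29 to 0.28.

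The spread between replicates was larger than counting error for most members. For chi-square per degree of freedom between the libraries of a group, counting error alone gives a mean of about 1 and a lower median. Its median over the 31 members was 4.59 in air and 3.18 in CAP. For 398 other miRNAs in the same range of mean counts (9.33 to 576 per library) the medians were 1.57 and 2.98. They were matched on this range only, and not on how the counts are distributed within it. The value for miR-376b-3p was 0.516 in air and 3.18 in CAP, and for miR-379-5p 1.32 in air and 19.1 in CAP. For miR-382-5p the value was 17.0 in air and 9.07 in CAP, and for miR-411-5p 14.2 and 23.6. At the same relative spread this value rises with the counts. It therefore does not rank members of unlike abundance by how much they varied.

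Levels of a fixed list of stromal and smooth muscle miRNAs are given beside this, because stromal cells of the marrow can be present in such cultures. The 15 miRNAs of that list, all of them detected, summed to 62726 to 77582 CPM in air and 46712 to 68409 CPM in CAP. Of these, 13 of 15 had a log2 fold change below 0 and 2 above, where 50.5% of all miRNAs tested were above 0. At an unadjusted edgeR p under 0.05, 5 of 15 were lower in CAP, against 9.45% of all miRNAs. At the same level 0 were higher, against 11.5%, and 0 passed the adjusted threshold of edgeR. The list was chosen with earlier results of these data known. Several of its miRNAs are arms of the same precursor and are not independent of each other. The counts are therefore a description, with no test. Air replicate 3, in which the Dlk1-Dio3 miRNAs were lowest, had the highest stromal sum, while CAP replicate 2 was the lowest CAP library in both. The hematopoietic and erythroid list, with all 6 miRNAs detected, summed to 57193 to 70823 CPM in air and 59936 to 75169 CPM in CAP. Most of this sum came from miR-223-3p and the arms of miR-142a. The scarce erythroid miR-451a was at 32.9 CPM in CAP replicate 1 and 4.85 to 9.63 CPM elsewhere. For miR-144-3p the levels were 30.7 CPM and 4.49 to 12.3 CPM. In the neuronal and endocrine list, the neuron-defining miR-124-3p was at 0 counts in CAP replicates 2 and 3 and at most 0.463 CPM elsewhere. The 8 miRNAs of this list summed to 2887 to 3330 CPM in air and 4463 to 5633 CPM in CAP, most of it from miR-7a-5p. Its part in the levels of the Dlk1-Dio3 miRNAs, like that of the other lists, was not tested.

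Arms of the same precursor differed in how they compared between groups. A hairpin yields a mature miRNA from its 5′ side (5p) and 1 from its 3′ side (3p), and their ratio within a library does not depend on scaling. Of 5 precursors with both arms among the members, 4 had a median of at least 10 counts in each arm. For 3 of these the 5p to 3p ratio did not overlap between air and CAP, 2 with a higher ratio in CAP and 1 with a lower one. Of 210 precursors of the whole table, 23.3% had a ratio that was higher in CAP without overlap, 15.2% a lower one and 38.6% either. The exact two-sided permutation test of 3 against 3 libraries cannot give a p below 0.1, so none could pass.

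For miR-337, whose hairpin lies upstream of the precursors opposite to Rtl1, the 5p to 3p ratio was 0.553, 0.707 and 0.696 in air replicates 1, 2 and 3 and 1.20, 0.772 and 1.08 in CAP. The 3p arm was the more abundant in every air library and in CAP replicate 2, and the 5p arm in CAP replicates 1 and 3, with a log2 difference of 0.62 (exact permutation p = 0.1, adjusted 0.133 over 4 precursors). miR-337-5p itself was at 2.43, 3.27 and 2.58 CPM in air and 4.29, 2.44 and 3.996 CPM in CAP, and overlapped. For miR-434 the ratio was 0.973, 1.39 and 1.26 in air and 1.44, 1.396 and 1.91 in CAP. Air replicate 2 and CAP replicate 2 were almost level, and the log2 difference was 0.39 (exact permutation p = 0.1, adjusted 0.133). miR-434-3p itself was at 12.9, 10.7 and 8.79 CPM in air and 11.5, 10.4 and 9.69 CPM in CAP.

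For miR-136 the difference ran the other way, with ratios of 1.47, 2.30 and 1.73 in air and 1.095, 1.12 and 1.36 in CAP. The 5p arm was the more abundant in all 6 libraries, by less in each CAP library, and the log2 difference was −0.60 (exact permutation p = 0.1, adjusted 0.133). miR-136-3p was at 6.18, 4.38 and 3.64 CPM in air and 6.72, 4.93 and 4.51 CPM in CAP. For miR-369 the ratio was 0.742, 0.620 and 0.887 in air and 0.667, 0.817 and 0.750 in CAP, with full overlap and an exact permutation p of 1. miR-369-5p was at 5.14, 3.83 and 3.64 CPM in air and 3.84, 4.21 and 4.22 CPM in CAP. miR-369-3p was at 6.93, 6.17 and 4.10 CPM in air and 5.76, 5.15 and 5.62 CPM in CAP. Both overlapped. miR-154-3p had 6 counts in total and could not be compared with miR-154-5p.

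**Figure D5:**
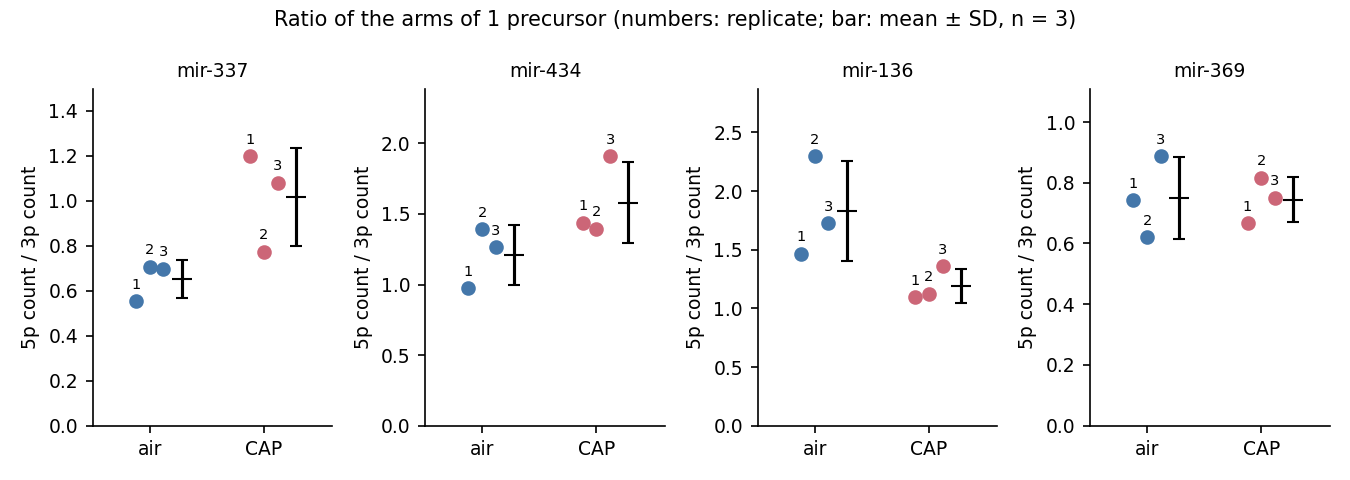
Count of the 5p arm divided by that of the 3p arm (y axis, from 0) in each library for 4 precursors, with replicate numbers beside the points and the mean ± SD of each group (n = 3). The ratio is higher in CAP for miR-337 and miR-434, lower for miR-136, and overlaps for miR-369.

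Of the other 34 member precursors, the member was the more abundant arm in 29, the other arm in 4 and neither in 1. The exceptions were miR-329, with 56 counts of the 3p member against 166 of miR-329-5p, and the precursors of miR-380-3p, miR-485-5p and miR-666-5p. miR-410-3p and its other arm had 3 counts each.

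The remaining 10 tested members, at mean levels of 0.580 to 8.68 CPM, had unadjusted p of at least 0.353. Among them was miR-134-5p, which restrains the growth of dendritic spines in rat neurons, at 5.88 to 9.13 CPM in air and 6.65 to 10.4 CPM in CAP. miR-494-3p was at 13.2 CPM in air replicate 1 and at 4.75 and 6.54 CPM in air replicates 2 and 3, against 7.31 to 10.6 CPM in CAP. miR-299a-5p overlapped as well, at 6.28 to 9.36 and 5.21 to 8.89 CPM. The others were miR-323-3p, miR-329-3p, miR-341-3p, miR-370-3p, miR-376a-3p, miR-487b-3p and miR-496a-3p.

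A further 13 members did not reach the expression filter and were not tested, namely miR-154-3p, miR-380-3p, miR-410-3p, miR-412-5p, miR-433-3p, miR-485-5p, miR-495-3p, miR-543-3p, miR-665-3p, miR-666-5p, miR-667-3p, miR-668-3p and miR-673-5p. They had 3 to 57 counts each over the 6 libraries. miR-665-3p, the most counted of them, had 9, 7 and 3 counts in air and 17, 11 and 10 in CAP. miR-495-3p had 5, 3 and 6 counts in air and 0, 1 and 1 in CAP. With no filter on low counts its unadjusted p by edgeR was under 0.05, and its adjusted p was not. By DESeq2 its unadjusted p was 0.069.

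The other mature arms encoded in the same stretch, taken by position and extended by 10 kb at either end, are the nearest comparison. Of 70 names, 47 had a count and 14 were tested, 6 with a log2 fold change above 0 and 8 below, with a median of −0.09. At an unadjusted p under 0.05, 1 was higher, miR-1193-3p, and 0 were lower, and 0 passed the adjusted threshold. miR-1193-3p was at 1.44, 1.48 and 1.52 CPM in air and 2.18, 2.71 and 2.89 CPM in CAP, with no overlap (fold change 0.80 ± 0.22, edgeR adjusted p = 0.146). miR-379-3p, the opposite arm of the most abundant member, was at 2.25, 1.85 and 1.59 CPM in air and 1.28, 1.27 and 1.48 CPM in CAP. All CAP libraries were below the air libraries, with a fold change of −0.50 ± 0.24 (edgeR adjusted p = 0.287), while miR-379-5p had a fold change above 0. Of all miRNAs tested, 14.3% were lower without overlap and 14.6% higher. miR-379-3p was named after its values were seen, and whether the 2 arms differed was not tested.

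Among 11 miRNAs of other imprinted loci (H19, Igf2, Mest, the Nespas region and miR-184), 7 were tested, 4 with a log2 fold change above 0 and 3 below, and 0 passed the adjusted threshold. miR-298-3p, of the Nespas region, was the only 1 at an unadjusted p under 0.05, at 0.463 to 0.802 CPM in air and 1.04 to 1.33 CPM in CAP. miR-675-3p and miR-675-5p, the products of H19, were at 0 to 0.309 CPM in every library.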

How the data were processed

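Per the study's methods, small RNA was ligated and amplified with QIAseq reagents before NextSeq sequencing. Reads were trimmed, mapped to mm10 with mirDeep2 and bowtie, and quantified against miRBase. Values deposited by the authors are raw read counts per mature miRNA and precursor. Version 20.0.422 of bcl2fastq is listed in the submitters' notes on processing. Collapsing by molecular identifiers was not stated, and limits cover counting error only.

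Where a name had several rows, that with most counts stayed (0 members had several). Counts were fitted with edgeR 4.0.16 (R 4.3.3): TMM scaling, the default expression filter, a quasi-likelihood test on group and Benjamini–Hochberg adjustment over 677 miRNAs, at an adjusted p of 0.05. Standard errors were derived from the F statistic. Tested on simulated counts of 677 miRNAs (200 changed, of which 197 passed the filter), edgeR recovered 75.5% of log2 changes of 1 and 98.0% of changes of 2, with 5 false calls. Those counts were drawn independently for each miRNA, with log2 changes of 1 or 2 only. The rates are a check of the fit and do not give its power for the members. Other normalizations, low-count filters and ways of joining rows were tried, as were DESeq2 1.42.0, limma-voom (limma 3.58.1), a replicate block and leaving out each library. Single ratios were compared by exact permutation (scipy 1.17.1). The study's methods give 3 mice per group, but the labels do not say which mouse gave which library. For some libraries the deposited name carries a higher number than the replicate label, with no reason stated. Whether further libraries were made is not stated. If libraries shared a culture, p-values measure technical spread.

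Positions and sequences came from RefSeq (GRCm38.p6) and host genes from GENCODE. Members and lists were chosen with earlier results of these data known. Values per library were given for the 10 most abundant members, up to 6 in each direction with the smallest p, and both arms of precursors with 2 members. Figures were drawn with matplotlib 3.10.9.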

Additional observations from a re-analysis of the deposited data

How the results depend on the processing

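No member passed an adjusted p of 0.05 in any setting, and miR-376b-3p was below an unadjusted p of 0.05 in each. Over all miRNAs edgeR called 0 (78 higher and 64 lower at an unadjusted p under 0.05), 13 with no filter on low counts, and DESeq2 called 30. Members higher at an unadjusted p numbered 2 with DESeq2 size factors, all rows as deposited, the sum of rows, the 5 most abundant miRNAs removed and limma-voom, and 4 under upper-quartile scaling; 1 member was lower with no filter and 1 with at least 10 counts in all. Members without overlap that were higher numbered 4 under upper-quartile scaling, 1 with library totals only and 4 with at least 10 counts. Those that were lower numbered 0 under upper-quartile scaling, library totals only, all rows and the sum of rows, and 2 with no filter or at least 10 counts. Leaving out single libraries gave 1 to 5 members higher and 0 to 2 lower at an unadjusted p, and 1 to 8 higher and 1 to 5 lower without overlap. Shares over all miRNAs are not given for these settings, so the counts are not read as a result about the members. The cause of these changes was not tested.

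Of 357 values of named members under the alternatives, 338 kept their direction and side of the threshold and 19 changed sign, all of them near 0. Under upper-quartile scaling miR-369-3p was at 0.079, miR-369-5p at 0.10 and miR-434-3p at 0.10. miR-127-3p was at −0.020 with library totals only, −0.00037 with no filter, −0.00056 with DESeq2, −0.013 with limma-voom and −0.0036 with the replicate block. Leaving out single libraries, miR-127-3p ranged from −0.16 to 0.14, miR-136-3p from −0.063 to 0.40, miR-369-3p from −0.26 to 0.079, miR-369-5p from −0.15 to 0.11, miR-411-5p from −0.11 to 0.19, miR-434-3p from −0.18 to 0.084, and the miR-369 arm ratio (log2 difference) from −0.13 to 0.13.

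With the replicate number as a block, 2 members were higher at an unadjusted p. The groups were different mice, and the deposited names of some libraries carry another number than the replicate label. The deviations of same-numbered libraries from their group means correlated at 0.02, 0.03 and 0.17, and air replicate 1 correlated best with CAP replicate 2 (0.21). The numbers were therefore not taken to pair the samples. The block changed no other member call. The 13 members that were not tested had at most 57 counts each.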
